A study of Mus musculus with 14 samples.

Results

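The keratin-associated proteins are the products of the Krtap genes, a family of small genes, here read as the rows of the count table whose Ensembl identifier maps to a mouse symbol of Krtap followed by a number. The table held 58 such genes among 56691, in 27 numbered subfamilies, 15 of which had 1 gene. Counts were found for 56 of the 58, and none in any library for the other two, Krtap9-5 and Krtap31-2. The filter on low counts was passed by 55 genes.

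Keratin-associated proteins form the matrix between the keratin filaments of the hair shaft and the nail or claw. They are made late in the differentiation of the follicle's and the nail's keratin-producing cells, after the hair keratins have begun to accumulate, and are joined to those keratins largely by disulfide bonds. They are sorted by amino acid content into high-sulfur, ultrahigh-sulfur and high glycine-tyrosine proteins, and they lie in a few gene clusters.

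The samples were whole paws of newborn mice, wild-type (WT) or homozygous for a null allele of Krt9 (Krt9-/-), which encodes a keratin of the suprabasal epidermis of palms and soles. Total RNA was depleted of ribosomal RNA and sequenced from 4 WT and 2 Krt9-/- paws at postnatal day 0 (P0), and from 5 WT and 3 Krt9-/- paws at day 3 (P3). Each group held males and females, and the labels give a litter for each paw but no strain. A paw holds skin, hair follicles, claws, muscle, bone and vessels together, so that fewer cells of a type and less RNA per cell cannot be told apart.

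The 14 libraries held 28947715 to 41004173 counts. Krt9 stood at 32.9 to 83.0 CPM (counts relative to the TMM-scaled library size) in P3 WT and at 7.74 to 25.2 in P3 Krt9-/-, and the ranges of the P0 groups overlapped. Krt19 separated the genotypes in every library, at 0.865 to 1.95 CPM in WT and 48.9 to 209 in Krt9-/-. The library labelled P0 WT replicate 4, a female, went against its label: Xist was at 0.181 CPM, beside 783 to 900 in the 6 other female-labelled libraries, and the Y-linked Ddx3y was at 0.155. The columns of the table run through the sample names in 2 alphabetical series, named block A (8 columns) and block B (6 columns) below, and the labels do not say what the series stand for. All 4 groups had libraries in both blocks. P3 WT replicates 2 and 3 came from 1 litter, as did replicate 1 of P0 WT and of P0 Krt9-/-.

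The promoters of the members carry a common feature. RefSeq start sites (GRCm38.p6; the submitters' processing notes name GRCm39) were matched by symbol for 51 members. Of these, 42 (82.4%) held the letters TATAAA on either strand between 250 bases before the start and 50 after it, beside 13.6% of 32851 promoters of the same length. In 28 members (54.9%) the motif began 35 to 20 bases before the start on the coding strand, beside 1.84% of all promoters. CTTTGA, the core recognised by LEF and TCF factors, was in 29.4% of members and 16.0% of all promoters on either strand. The 200 bases before the start are shown for 5 members, 2 that were well expressed at P0 (Krtap8-1 and Krtap6-2) and 3 that were near 0 at P0 (Krtap5-5, Krtap26-1 and Krtap15), and capitals mark both these motifs and the variant TATAAG on either strand.
Krtap8-1, chr16:89487953-89488152, minus strand: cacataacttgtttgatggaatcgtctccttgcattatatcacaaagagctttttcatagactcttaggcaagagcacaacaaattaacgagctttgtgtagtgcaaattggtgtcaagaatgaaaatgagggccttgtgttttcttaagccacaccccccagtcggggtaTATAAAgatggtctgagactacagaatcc
Krtap6-2, chr16:89420112-89420311, minus strand: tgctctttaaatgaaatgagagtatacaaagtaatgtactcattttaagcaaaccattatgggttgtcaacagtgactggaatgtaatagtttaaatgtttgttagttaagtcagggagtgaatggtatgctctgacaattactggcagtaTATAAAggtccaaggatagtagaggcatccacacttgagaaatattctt
Krtap5-5, chr7:142229972-142230171, minus strand: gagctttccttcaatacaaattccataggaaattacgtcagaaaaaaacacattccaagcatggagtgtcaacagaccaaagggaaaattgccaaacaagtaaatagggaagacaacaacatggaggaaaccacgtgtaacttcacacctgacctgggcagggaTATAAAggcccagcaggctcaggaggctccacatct
Krtap26-1, chr16:88647797-88647996, minus strand: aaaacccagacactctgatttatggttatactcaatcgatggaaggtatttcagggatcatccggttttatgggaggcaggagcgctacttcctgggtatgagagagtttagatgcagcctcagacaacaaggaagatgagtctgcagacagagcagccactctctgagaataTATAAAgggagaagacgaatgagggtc
Krtap15, chr16:88828809-88829008, plus strand: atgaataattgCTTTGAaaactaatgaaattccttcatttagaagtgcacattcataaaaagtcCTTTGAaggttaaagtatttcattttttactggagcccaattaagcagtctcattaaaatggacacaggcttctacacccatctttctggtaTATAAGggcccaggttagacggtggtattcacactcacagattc

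Counted from the start site as position 0, TATAAA began at -29 in Krtap8-1, -27 in Krtap26-1, -36 in Krtap5-5 and -49 in Krtap6-2. Krtap15 held no TATAAA. It held CTTTGA at -189 and -136, and the variant TATAAG at -44. The 9 matched members without TATAAA were Krtap3-3, Krtap5-3, Krtap14, Krtap15, Krtap27-1 and 4 of the 6 matched Krtap19 genes (19-1, 19-2, 19-3 and 19-4). TATAAG was searched after these sequences had been seen, and 8 of the 9 held it on either strand, beside 7.43% of all promoters. Sequence shared within a subfamily was looked at for Krtap5-5 alone. The longest run of bases its promoter shared was 34 with Krtap5-4 and 19 to 27 with the 3 other Krtap5 genes, and at most 11 with the 46 members of other subfamilies.

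**Figure D1:**
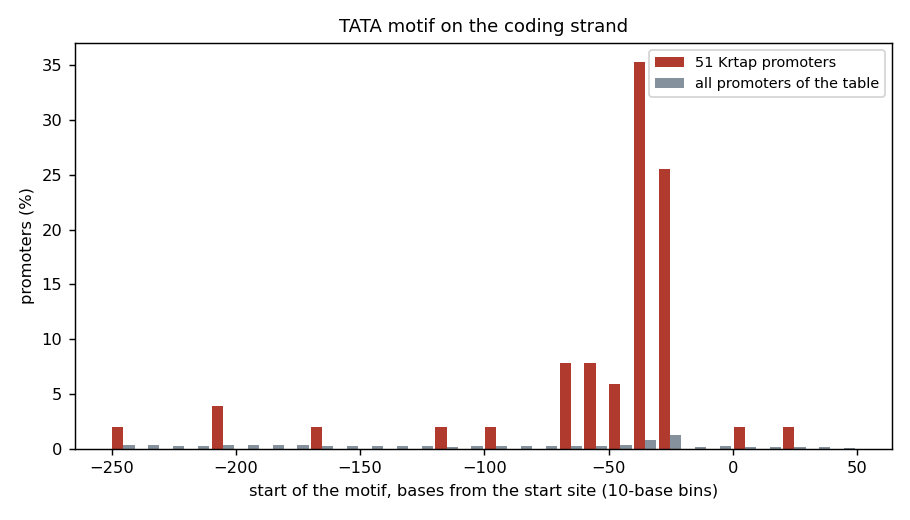
Percent of promoters (y axis) in which TATAAA begins on the coding strand in each 10-base bin of distance from the start site (x axis), for 51 Krtap promoters (red) and all 32851 promoters of the RefSeq table (grey). The tallest red bars, 35.3% and 25.5%, are the bins starting at -40 and -30, where the grey bars are 0.767% and 1.23%.

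The proteins, classed by the composition of their annotated coding sequence, were 21 ultrahigh-sulfur (at least 30% cysteine), 15 high-sulfur (at least 10%), 15 high glycine-tyrosine (at least 35% glycine and tyrosine), 6 of neither kind, and Krtap19-9a, annotated as a processed pseudogene and not classed. The ultrahigh-sulfur limit was applied first, then the glycine and tyrosine limit, then the high-sulfur limit. A protein past the first 2 limits thus counts as ultrahigh-sulfur alone. The genes lay on chromosomes 16 (25 genes), 11 (23), 7 (5), 10 (3) and 1 (2). In 23 members some 100-base stretch of the transcript also occurred in another gene, and the treatment of such reads in the authors' counting is not stated by the labels or notes. Krtap4-13, with 62.9% of its stretches shared with Gm11554 and Gm11569, and Krtap10-10 (38.9%), Krtap3-3 (36.7%, with Krtap3-2), Krtap2-4 (35.9%) and Krtap5-1 (33.9%) are uncertain for that reason.

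Taken per kilobase of transcript and averaged over the 14 libraries, the highest members were Krtap8-1 at 87.1 CPM per kilobase, a high glycine-tyrosine protein of the hair cortex, and Krtap7-1 at 71.3. Krtap22-2 (45.8), Krtap21-1 (41.4), Krtap6-1 (40.6), Krtap6-2 (32.8) and Krtap11-1 (29.8) followed. The spread of each over the libraries was wider than the gaps between neighbours in this order, and the average pools days that differ. In P0 WT alone the first 6 by mean CPM per kilobase were Krtap8-1 (51.5), Krtap7-1 (43.5), Krtap22-2 (29.9), Krtap21-1 (26.5), Krtap6-1 (24.3) and Krtap6-2 (21.7), and Krtap11-1, at 9.00, stood below Krtap3-1 (15.2), Krtap13 (14.5) and Krtap6-5 (13.7). In P3 WT Krtap11-1 was at 44.3, the fourth in the order. The lowest member with counts, Krtap31-1, stood at 0.0158 CPM per kilobase, from counts in P3 WT replicate 2 and P3 Krt9-/- replicate 1 alone.

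The summed level of the family was low at P0 and varied widely at P3. In P0 WT, replicates 1 to 4 had summed levels of 140, 132, 196 and 441 CPM, and the P0 Krt9-/- replicates had 258 and 122. In P3 WT, replicates 1 to 5 had 1596, 405, 214, 37.5 and 862 CPM, and the P3 Krt9-/- replicates had 1466, 247 and 869. P3 WT replicate 4 was the lowest of all 14 libraries, and P3 WT replicate 1 the highest. The means were 227 ± 145 (SD, n = 4) in P0 WT, 190 ± 96.1 (n = 2) in P0 Krt9-/-, 623 ± 625 (n = 5) in P3 WT and 861 ± 610 (n = 3) in P3 Krt9-/-, and the P0 and P3 ranges of WT overlapped. Members took 0.00389% to 0.161% of a library's counts.

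The column blocks separated the P3 sums without overlap. The block A libraries were at 37.5 to 405 CPM in P3 WT and 247 in P3 Krt9-/-, and the block B libraries at 862 to 1596 in P3 WT and 869 to 1466 in P3 Krt9-/-. At P0 the block B libraries were the highest of WT (441) and the lower of Krt9-/- (122). In block A the P3 WT sums overlapped the P0 WT sums of 132 to 196. In block B both P3 WT sums lay above the single P0 WT sum, and that library is the one that goes against its sex label. Without it, the P0 WT range ended at 196 and the P3 WT range still reached below it.

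**Figure D2:**
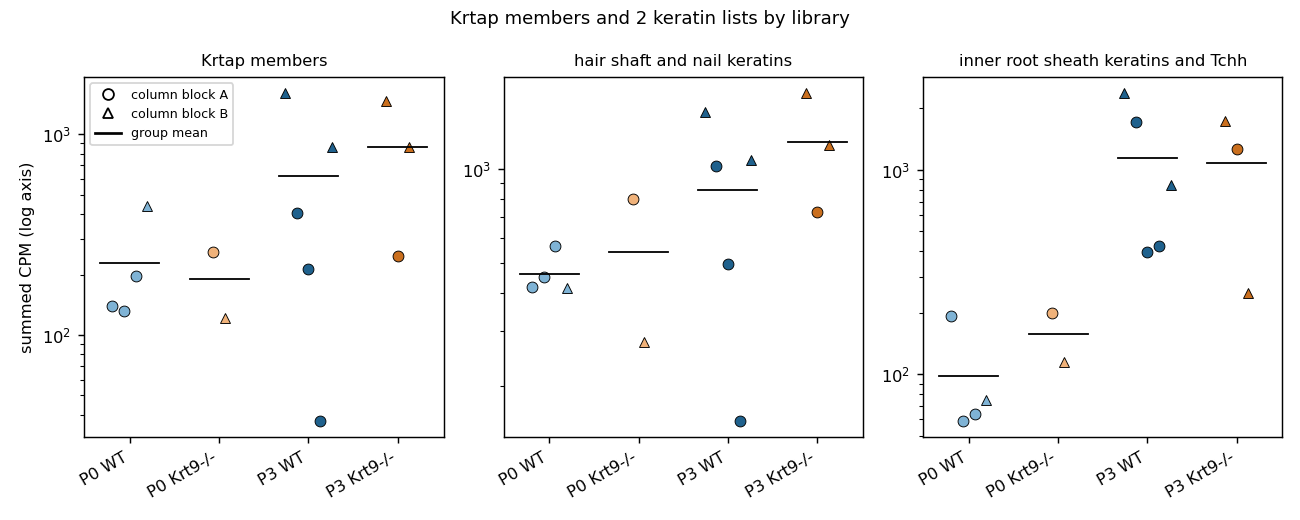
Summed CPM (log y axis) of the Krtap members, the hair shaft and nail keratins, and the inner root sheath keratins with Tchh in each library, by group (x axis), with block A as circles, block B as triangles and bars at the group means. P3 WT replicate 4 is the lowest point of the first 2 panels, at 37.5 and 155, and lies above every P0 point of the third, at 422.

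Members fell into patterns that differed in their P0 level and in how the P3 libraries were ordered. The first was seen in members with clear P0 levels. Krtap8-1 had 15.2, 17.0, 28.8 and 57.2 CPM in P0 WT, 36.2 and 17.7 in P0 Krt9-/-, 115, 31.3, 25.3, 3.62 and 107 in P3 WT, and 123, 17.1 and 106 in P3 Krt9-/-. Krtap7-1 had 21.2, 21.4, 30.8 and 34.6 CPM in P0 WT, 43.1 and 12.8 in P0 Krt9-/-, 84.1, 24.3, 29.4, 1.79 and 89.6 in P3 WT, and 109, 17.2 and 100.3 in P3 Krt9-/-. In both genes the 4 block B libraries at P3 lay far above the P0 range of the same genotype, the block A libraries other than P3 WT replicate 4 lay within or near it, and P3 WT replicate 4 lay below it.

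The same order of the P3 libraries was seen in Krtap6-2 and Krtap21-1, which are both classed as high glycine-tyrosine. Krtap6-2 had 5.38, 5.64, 10.1 and 47.2 CPM in P0 WT, 12.2 and 9.42 in P0 Krt9-/-, 42.0, 6.26, 12.8, 0.532 and 59.9 in P3 WT, and 72.4, 6.47 and 70.5 in P3 Krt9-/-. Krtap21-1 had 7.58, 7.82, 12.0 and 41.5 CPM in P0 WT, 12.9 and 7.13 in P0 Krt9-/-, 47.1, 5.46, 9.71, 0.233 and 68.7 in P3 WT, and 79.7, 5.26 and 72.4 in P3 Krt9-/-. At P0 both genes were highest in WT replicate 4, the block B library. The P0 and P3 ranges of WT overlapped with or without that library. Among the high-sulfur genes, Krtap3-1 had 8.99, 5.87, 7.15 and 14.8 CPM in P0 WT, 11.1 and 2.87 in P0 Krt9-/-, 42.5, 10.1, 8.60, 1.59 and 28.8 in P3 WT, and 58.6, 6.44 and 28.7 in P3 Krt9-/-.

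In 24 of the 55 members past the filter, every P3 library of block B lay above every P3 library of block A, whatever the genotype, beside 15.0% of all genes tested. The 24 came from 14 subfamilies: 3 (3 of 3 genes), 6 (4 of 4), 13 (both genes), the single-gene subfamilies 2, 7, 8, 20, 21, 22 and 27, and some genes of 1, 4, 9 and 19. No gene of subfamilies 5, 10, 11, 12, 14, 15, 16, 17, 24, 26, 28 or 29 was among them. P3 WT replicate 4 was the lowest P3 library for 36 of the 55, and it lay below every P0 WT library for 26 and above every one for 9. The shares over all genes were not computed for these counts of replicate 4. The counts therefore do not show that its order is particular to the family.

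The second pattern was seen in members near 0 at P0. Krtap15 had 0.261, 0, 0 and 0.0259 CPM in P0 WT, 0.0574 and 0.0756 in P0 Krt9-/-, 89.0, 14.1, 0.190, 0 and 2.41 in P3 WT, and 36.9, 4.05 and 0.351 in P3 Krt9-/-. Krtap14 had 0 in the 4 P0 WT libraries, 0.0287 and 0 CPM in P0 Krt9-/-, 29.0, 6.59, 0.0634, 0.0664 and 1.02 in P3 WT, and 12.3, 1.57 and 0.0702 in P3 Krt9-/-. Here P3 WT replicates 1, 2 and 5 and P3 Krt9-/- replicates 1 and 2 were high, and WT replicates 3 and 4 and Krt9-/- replicate 3 remained at or near the P0 level. The high libraries were from both blocks, and WT replicates 2 and 3, a high and a low one, shared a litter.

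Within subfamily 19, Krtap19-1, Krtap19-2 and Krtap19-4, which encode high glycine-tyrosine proteins, had counts in 5, 5 and 4 of the 14 libraries. Krtap19-4 was at 9.77 and 1.66 CPM in P3 WT replicates 1 and 2 and at 0 in the other three, at 3.57 and 0.574 in P3 Krt9-/- replicates 1 and 2 and at 0 in the third, and at 0 in every P0 library. Krtap19-2 was at 15.3 and 2.58 CPM in the same P3 WT replicates, at 5.02 and 0.393 in the same Krt9-/- replicates, and had 1 count in the 6 P0 libraries together. By contrast Krtap19-9b had counts in every library and 4.45 CPM in P0 WT replicate 4, beside 0.150 to 0.715 in the other P0 WT libraries.

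**Figure D3:**
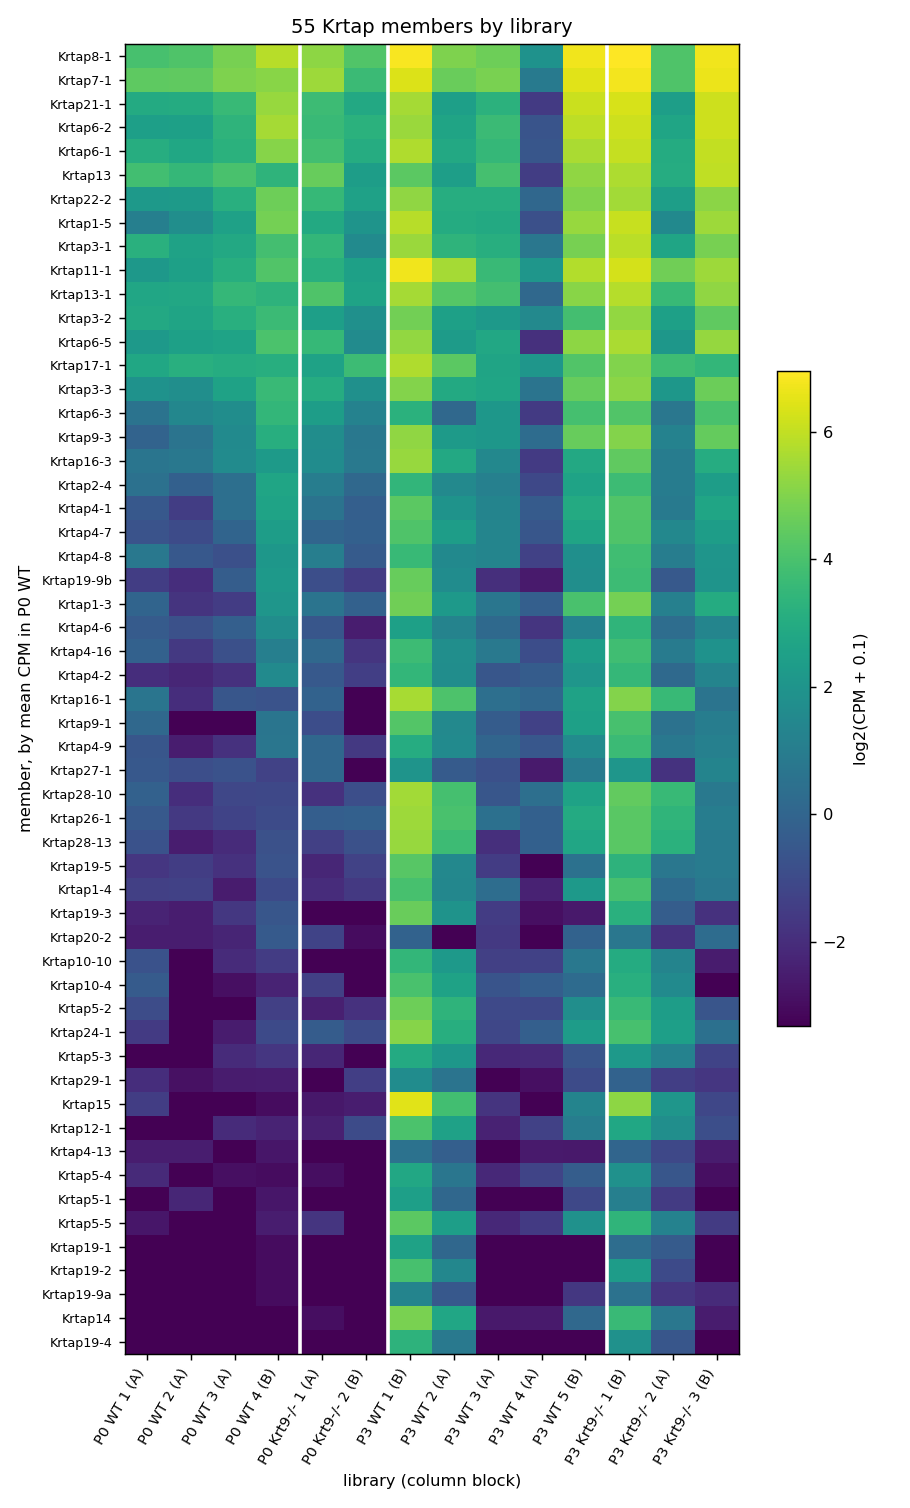
Level of the 55 members past the filter, as log2(CPM + 0.1) in colour, in each of the 14 libraries (columns, with the block in brackets), sorted by mean CPM in P0 WT. The upper rows are bright in the block B libraries at P3, and the lower rows are bright in P3 WT 1 and 2 and P3 Krt9-/- 1 and 2.

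The balance within the family differed between P3 libraries. High glycine-tyrosine genes made up 34.99% to 55.1% of the family's summed CPM in the 6 P0 libraries, and at P3 30.2%, 21.3%, 38.5%, 17.7% and 44.2% in WT and 35.3%, 22.1% and 48.2% in Krt9-/-. Ultrahigh-sulfur genes made up 6.38% to 14.9% at P0, and at P3 22.8%, 27.7%, 10.4%, 34.2% and 11.0% in WT and 18.0%, 26.96% and 5.94% in Krt9-/-. High-sulfur genes made up 23.6% to 38.3% in the 14 libraries, and the 6 genes of neither kind 9.83% to 24.1%. These are shares of a sum and are given without a test.

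The comparison of P3 with P0 in WT asked which members changed in the paw over the first days after birth. In edgeR's quasi-likelihood test, adjusted by the Benjamini-Hochberg method over 21619 genes, 10 of 55 members were higher at P3 and none was lower, beside 8.49% of all genes called higher. All 55 log2 fold changes were positive, with a median of 2.01, beside -0.01 over all genes tested, of which 49.1% were positive. An unadjusted p under 0.05 was found for 21 members, all higher, beside 15.4% of all genes higher at that p. Over the same days 3 of 5 skeletal muscle markers were lower (median of the list -1.19 on the log2 scale), as were 2 of 10 general epithelium markers (-0.45), 2 of 9 suprabasal markers (-0.44) with 1 higher, and 1 of 3 endothelial markers (-0.45), while none of 6 fibroblast and bone markers passed (0.29). Of 10 follicle stem and outer root sheath markers 3 were higher and 1 lower (0.13). The part of these shifts in the Krtap values was not tested. Of the 55, 16 passed the filter on low counts only through P3 libraries and so could hardly have been lower, and 5 of the 10 called were among these 16. Among the 39 members that also passed on the P0 libraries alone, 5 were called higher, beside 8.54% of the genes that did so.

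The 10 called genes were Krtap5-4 and Krtap5-5, Krtap28-10 and Krtap28-13, and Krtap12-1, Krtap15, Krtap16-1, Krtap19-9a, Krtap24-1 and Krtap26-1. They covered 4 ultrahigh-sulfur, 3 high-sulfur genes, 2 of neither kind (Krtap15 and Krtap24-1) and the pseudogene Krtap19-9a, and none of the 15 tested genes classed as high glycine-tyrosine. That absence depends on the order of the limits. Krtap28-10 and Krtap28-13, classed as ultrahigh-sulfur, also held 38.7% and 42.0% glycine and tyrosine. Both tested Krtap28 genes were called, 2 of 5 in Krtap5, and none of 8 in Krtap4, of 4 in Krtap6 or of 3 in Krtap3.

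Krtap5-4, of a subfamily of ultrahigh-sulfur proteins described in the hair cuticle, had 0.131, 0, 0.0357 and 0.0259 CPM in P0 WT and 6.93, 1.54, 0.127, 0.332 and 0.7104 in P3 WT. Its log2 fold change was 4.99 ± 1.20 (SE; adjusted p = 0.0154), and P3 replicate 3 fell within the P0 range. Krtap5-5 of the same subfamily had 0.0523, 0, 0 and 0.0776 CPM in P0 WT and 20.4, 5.25, 0.127, 0.233 and 3.58 in P3 WT. Its log2 fold change was 6.92 ± 1.81 (adjusted p = 0.0271), and every P3 library lay above every P0 library. That separation was near the floor, with 4 counts in P3 replicate 3 and 3 counts in P0 replicate 4. Krtap26-1, high-sulfur, had 0.627, 0.226, 0.322 and 0.414 CPM in P0 WT and 42.8, 15.9, 1.27, 0.797 and 7.63 in P3 WT. Its log2 fold change was 4.69 ± 1.19 (adjusted p = 0.0241), with no overlap of the groups.

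Krtap12-1, of a second subfamily described in the cuticle, had 0, 0, 0.143 and 0.104 CPM in P0 WT and 16.4, 5.73, 0.0952, 0.299 and 1.95 in P3 WT, a log2 fold change of 5.82 ± 1.69 (adjusted p = 0.0401). Krtap24-1 had 0.235, 0, 0.0715 and 0.388 CPM in P0 WT and 33.8, 8.57, 0.349, 0.764 and 5.04 in P3 WT, a change of 5.18 ± 1.43 (adjusted p = 0.0343). P3 replicate 3 lay inside the P0 range for both. Krtap28-13 had 0.496, 0.0752, 0.143 and 0.492 CPM in P0 WT and 40.5, 12.9, 0.159, 0.797 and 6.64 in P3 WT, a change of 4.83 ± 1.45 (adjusted p = 0.0468). Its neighbour Krtap28-10 had 0.150 to 0.810 CPM at P0 and 0.571 to 45.2 at P3 (adjusted p = 0.0359). Krtap16-1 had 0.150 to 1.49 CPM at P0 and 0.963 to 48.7 at P3 (adjusted p = 0.0461), and both genes overlapped between the days.

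For Krtap15 the log2 fold change was 7.57 ± 2.21 (adjusted p = 0.0422), with P3 replicates 3 and 4 within the P0 range. Krtap19-9a had 1 count in the P0 WT libraries and 118 in the P3 WT libraries, a ratio of 90.3 with a counting interval of 15.9 to 3600 (exact, 95%), and an adjusted p of 0.0453 in the edgeR fit. It was at 0 in P3 WT replicates 3 and 4. Krtap14 had 0 counts in P0 WT and was at least 348-fold higher at P3, against a floor of 3 counts over the group, with an adjusted p of 0.0631 in edgeR's test. The groups did not overlap, though P3 WT replicates 3 and 4 held only 2 counts each. Krtap19-4, at least 108-fold higher by the same floor, had an adjusted p of 0.148. Intervals and floors cover counting error only.

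Every P3 WT library lay above every P0 WT library for 3 of the 55, Krtap5-5, Krtap14 and Krtap26-1, beside 8.96% of all genes tested. An exact two-sided permutation test of log2(CPM + 0.1) over the 9 WT libraries was run for the 55 members, and its smallest possible p is 0.00794. In this exact permutation test 6 of the 55 had an unadjusted p under 0.05, and 5 of these were among the 10 called. In the same exact permutation test Krtap5-4 had p = 0.0238, Krtap26-1 p = 0.0317 and Krtap15 p = 0.127. The share over all genes was not computed. The 10 were picked from the same libraries, so the 5 are no independent check on the calls. Krtap8-1 and Krtap7-1, the most abundant members, had log2 fold changes of 0.89 ± 0.92 and 0.72 ± 0.88 and did not pass (edgeR adjusted p = 0.565 and 0.635).

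The count of 10, beside 1836 of 21619 genes called higher, depended on single libraries, and so did the count over all genes. For the members it was 0 without P0 WT replicate 1 (900 of 21201 genes higher) or without replicate 3 (904 of 21750). It was 1 without replicate 2 (Krtap5-4, beside 1135 of 21755 genes). Without replicate 4, the library that goes against its sex label, it was 18 (2058 of 21229), with 9 of the 10 among the 18. Leaving out a P3 WT library gave 5 (replicate 1, beside 1471 of 21240 genes higher), 3 (replicate 2, 1283 of 21277) and 17 (replicate 3, 1558 of 21758). It gave 13 for replicate 4 (1399 of 21764) and 1 for replicate 5 (1267 of 21702). Leaving out a Krt9-/- library, which moves the shared spread and the sex term, gave 5 to 9, beside 1748 to 2173 genes higher. limma voom called 0 of 55 without the litter as a replicate block, beside 1710 of 21619 genes called higher. With the litter it also called 0, beside 1535 genes (litter within days) or 1600 (litter number across days). DESeq2 called 17 of 55 higher, beside 11.5% of all genes, and edgeR with no filter on low counts called 47 of 56 higher, beside 6.17%.

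Within the column blocks the called genes differed. With a block term 6 were called, beside 2714 of 21619 genes called higher. Of the 6, Krtap5-4, Krtap5-5, Krtap24-1, Krtap26-1 and Krtap19-9a were among the 10. In block A alone (3 libraries against 3) Krtap5-4 and Krtap4-2 were higher and Krtap3-2 was lower, of 54 members tested. There 3283 of 21691 genes were called higher. Block B held 1 P0 library of each genotype, so its calls rest on an arm of 1 and are not used here. With the block term and without P0 WT replicate 4, the 6 called were Krtap1-3 and 5 Krtap4 genes (4-1, 4-2, 4-7, 4-9 and 4-16), and none of the 10 was among them. In that fit 3235 of 21229 genes were called higher.

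**Figure D4:**
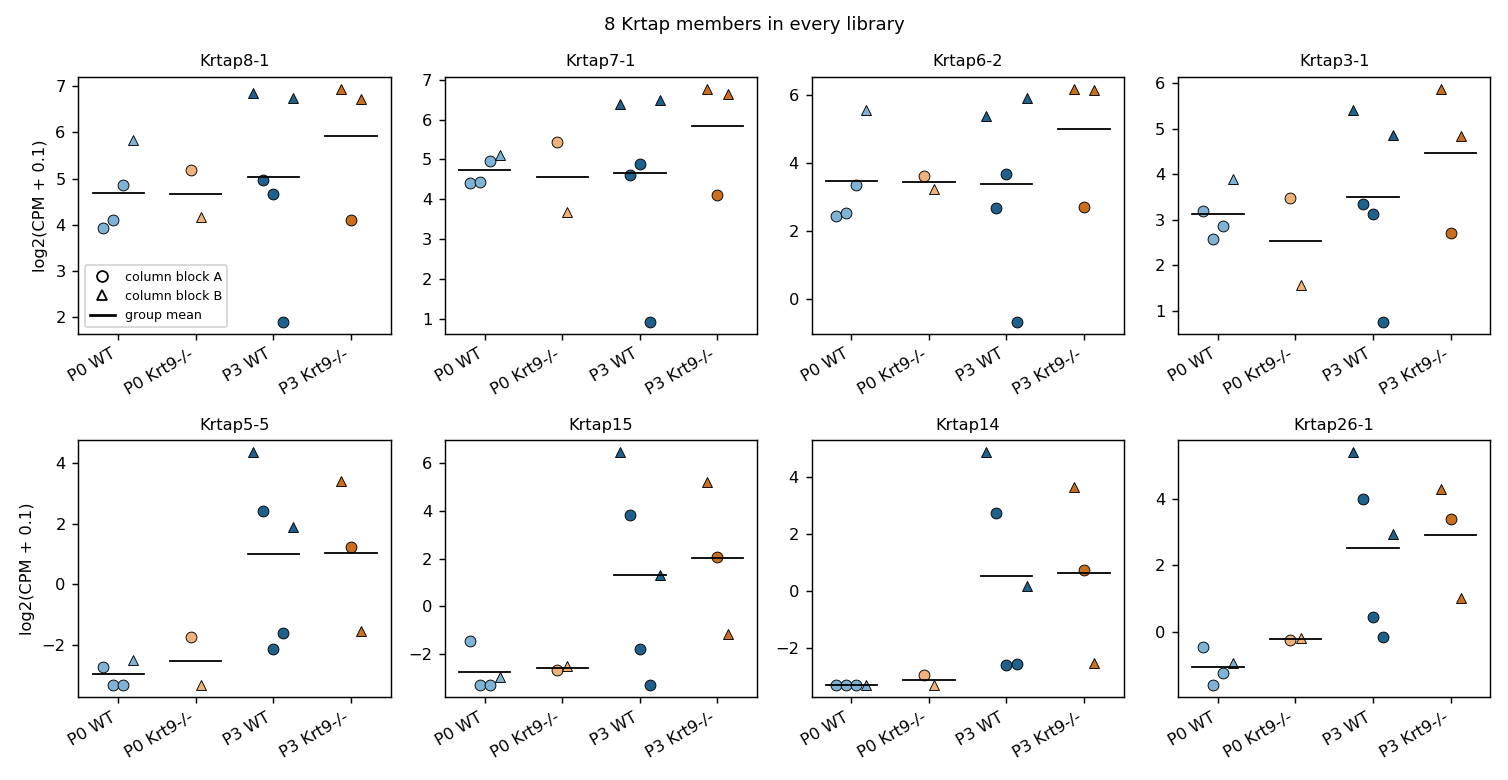
Level as log2(CPM + 0.1) (y axis) of 8 members in each library by group (x axis), with block A as circles, block B as triangles and bars at the group means of the log values. In the top row (Krtap8-1, Krtap7-1, Krtap6-2, Krtap3-1) the P3 triangles all lie above the P3 circles; in the bottom row (Krtap5-5, Krtap15, Krtap14, Krtap26-1) the P0 points are low and the P3 points of both shapes spread from near that level upward.

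In Krt9-/- paws the comparison of P3 with P0 rested on 3 and 2 libraries. No member passed edgeR's test, beside 0.338% of all genes called higher; 22 had an unadjusted p under 0.05, all higher, beside 8.33% of all genes. DESeq2 called 10, beside 3.31% of all genes called higher, and limma voom called 0, beside 65 of 21619 genes higher. All 55 fold changes were positive, with a median of 3.44 on the log2 scale, beside -0.01 over all genes with 49.2% positive, and the same median was obtained with the 8 genes at 0 in P0 set to their lower bounds. Every P3 library lay above both P0 libraries for 29 of the 55, beside 11.8% of all genes, and for 18 of the 39 past the filter on P0 libraries, beside 11.0%. In this comparison 8 of 9 suprabasal markers were higher at an unadjusted p under 0.05, with a median of 1.24. The 29 members included Krtap5-5, Krtap14 and Krtap26-1, which separated in WT as well, in libraries of other paws. For 2 of them the Krt9-/- separation was near the floor. Krtap5-5 had 7 counts in both P3 replicate 3 and P0 replicate 1, and Krtap14 had 2 and 1 there.

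The smallest unadjusted p in Krt9-/- belonged to Krtap5-4, with 0.0287 and 0 CPM at P0 and 3.51, 0.574 and 0.0351 at P3. Its 1 P0 count and 146 P3 counts gave a ratio of 112 with a counting interval of 19.7 to 4440 (exact, 95%), and its adjusted p in edgeR was 0.140. Krtap16-1 had 0.832 and 0 CPM at P0 and 32.9, 12.0 and 1.44 at P3, a log2 fold change of 5.87 ± 1.80 (edgeR adjusted p = 0.160). Krtap10-10, of a subfamily described in the cuticle, was at 0 in both P0 libraries and at 7.78, 2.36 and 0.0702 CPM at P3, at least 91.5-fold higher (edgeR adjusted p = 0.163). Krtap4-13 was likewise at 0 at P0 and at 0.920, 0.363 and 0.0702 CPM at P3, at least 12-fold higher (edgeR adjusted p = 0.172). For 3 of these 4 genes replicate 3 was within 0.1 CPM of the P0 libraries. Krtap5-4 was called when P3 WT replicate 3 was left out of the shared fit.

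The genotypes were compared at each day to ask whether loss of Krt9 altered the family. At P0 no member passed edgeR's test, beside 0.00463% of all genes; none had an unadjusted p under 0.05, and DESeq2 and limma voom called none. The median log2 fold change of Krt9-/- over WT was -0.51, beside -0.00392 over all genes, and 12 of 55 were positive, beside 49.5% of all genes. The suprabasal list had a median of -0.54 in the same comparison, with 5 of 9 lower at an unadjusted p under 0.05. The smallest unadjusted p was that of Krtap4-6, with 0.679, 0.489, 0.750 and 3.18 CPM in WT and 0.574 and 0.0756 in Krt9-/- (edgeR adjusted p = 0.839). Its ranges overlapped. Krtap10-10, Krtap4-13 and Krtap19-3 came next, each at 0 in both Krt9-/- libraries and at 0 to 0.569 CPM in WT (edgeR adjusted p of 0.857, 0.857 and 0.861).

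At P3 no member passed either, beside 0.00463% of all genes; none had an unadjusted p under 0.05, and DESeq2 and limma voom called none. The median log2 fold change was 0.50, beside -0.01 over all genes, and 51 of 55 were positive, beside 47.8% of all genes. Suprabasal epidermis markers stood higher in the same libraries, with a median of 0.94 and an unadjusted p under 0.05 for 8 of 9, and general epithelium markers had a median of 0.44 with 5 of 10 higher at that p, though none passed after adjustment. The fibroblast and bone list had a median of -0.55, skeletal muscle -0.37 and endothelium -0.50, and the part of these shifts in the Krtap values was not tested. Krtap3-2 had the smallest unadjusted p, with 27.2, 5.58, 4.57, 2.76 and 14.6 CPM in WT and 38.5, 5.62 and 21.6 in Krt9-/-, a log2 fold change of 1.06 ± 0.71 (edgeR adjusted p = 0.887). Krtap13 had 20.5, 5.25, 15.2, 0.266 and 37.7 CPM in WT and 51.7, 7.98 and 61.5 in Krt9-/-, a change of 1.39 ± 1.00 (edgeR adjusted p = 0.900). Krtap4-6 (0.199 to 5.67 CPM in WT, 1.18 to 10.46 in Krt9-/-) and Krtap20-2 (0 to 0.834 in WT, 0.181 to 1.56 in Krt9-/-) followed, and the genotypes overlapped in all 4 genes. Block B held 2 of 3 Krt9-/- and 2 of 5 WT libraries at P3, and within each block the summed family level of Krt9-/- lay inside the WT range. With these group sizes, a p over the threshold does not show that the genotypes were alike.

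The difference between the day effects of the genotypes was tested as an interaction, and no member passed edgeR's test, beside 0% of all genes; none had an unadjusted p under 0.05, and DESeq2 and limma voom called none. The median of the interaction on the log2 scale was 1.27, beside -0.02 over all genes. Krtap4-6 had the smallest p, with an interaction of 3.56 ± 1.66 (unadjusted p = 0.0547, edgeR adjusted p = 0.664). Krtap3-2 (2.11 ± 1.17), Krtap4-13 and Krtap10-10 followed, with adjusted p between 0.709 and 0.742 in edgeR. So the lack of calls in Krt9-/- and the 10 calls in WT were not shown to differ.

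The keratins that these proteins embed were read from lists chosen with earlier results known. In WT, 3 of 15 tested hair shaft and nail keratins were higher at P3 and none lower, Krt35, Krt32 and Krt40. Krt35, a hair keratin of the matrix and early cortex, had 18.7, 19.6, 23.7 and 20.6 CPM in P0 WT and 243, 323, 75.6, 72.8 and 114 in P3 WT, a log2 fold change of 2.82 ± 0.54 (edgeR adjusted p = 0.00737). The groups did not overlap, and P3 replicate 4, the lowest for the Krtap sum, was close to replicate 3. All 9 inner root sheath genes were higher at P3; Krt71 had 38.0, 7.22, 7.97 and 16.0 CPM in P0 WT and 714, 542, 114, 120 and 285 in P3 WT. Of 8 tested other hair shaft proteins, 6 were higher, among them S100a3, a calcium-binding protein of the hair cuticle (3.75 ± 0.83). Of 15 regulators of hair matrix and shaft, 4 were higher and 1 lower, and Hoxc13, a regulator of hair keratin genes, was among the higher (1.24 ± 0.30, edgeR adjusted p = 0.0171).

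The order of the P3 libraries was read for the keratins as well. Every block B library lay above every block A library at P3 for 7 of 15 hair shaft and nail keratins. The same held for 0 of 9 inner root sheath genes and for 15.0% of all genes tested. In a list of 9 genes, a count of 0 is near that share. Krt84, a keratin of the nail and tongue, had 87.2, 29.6, 54.5, 7.47 and 167 CPM in P3 WT and 173, 46.7 and 237 in P3 Krt9-/-, and 47.9 to 119 in P0 WT. Krt86, a hair cortex keratin, had 82.3, 22.4, 13.5, 2.16 and 51.2 CPM in P3 WT and 103, 10.4 and 52.0 in P3 Krt9-/-. S100a3 instead was high in P3 WT replicates 1 and 2 (140 and 144 CPM) and P3 Krt9-/- replicates 1 and 2 (93.2 and 99.1) and low in WT replicates 3 and 4 (14.9 and 22.3) and Krt9-/- replicate 3 (13.0).

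Markers of other tissues differed between the blocks at P3 too, in some lists. The summed suprabasal list (9 genes) was at 23950 to 49650 CPM in the 4 block B libraries at P3 and at 16540 to 21460 in the 4 of block A, and the fibroblast and bone list (6 genes) at 16750 to 38850 and 54220 to 68580. The endothelial list (3 genes) was at 177 to 285 in block B and 312 to 365 in block A. The other 3 lists overlapped: muscle (5 genes) at 1169 to 2279 and 2160 to 2998, follicle and outer root sheath (10 genes) at 1042 to 1407 and 1376 to 1493, and general epithelium (10 genes) at 7012 to 10190 and 6873 to 8242. The part of these shifts in the Krtap values was not tested.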

How the data were processed

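Total RNA of 14 whole paws was depleted of ribosomal RNA and sequenced. The deposited table holds raw counts per Ensembl gene, as its whole numbers with unequal library totals show; the submitters' processing notes list GRCm39 as build and, in no stated order or role, featureCounts, limma, edgeR and STAR 2.7.10a. No source used here states the strand or multi-mapping settings. Each column was matched to a sample by its title, and groups are day and genotype from the labels. Symbols were found for 52073 of 56691 identifiers. Counts were filtered with filterByExpr, scaled by TMM and tested with edgeR 4.0.16 (R 4.3.3, robust quasi-likelihood, one design over the 14 libraries with group and sex, 9 residual degrees of freedom, 5 contrasts), with Benjamini-Hochberg adjustment and a threshold of 0.05. Sums and levels use every member, filtered or not. The fit was tested on simulated data that had the same dispersion for every gene. That test does not bear on calls in members as variable, or as near 0 at P0, as these. Nothing but the labels says that replicates are separate animals, so p-values measure the spread between these samples. Litter was entered as a replicate block in limma 3.58.1 (voom with duplicateCorrelation); labels state a shared litter only for P0 WT and Krt9-/- replicate 1 and for P3 WT replicates 2 and 3, and the consensus correlation was 0.555 within days. DESeq2 1.42.0, other scalings and filters, left-out libraries and column blocks were alternatives. Named members are the most abundant of each subfamily, up to 8 called members per contrast by fold change, and, where fewer than 4 were called, the 4 with the smallest p; a few members outside this rule were named after their values were seen. The members and lists were chosen with earlier results of these data known.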

Additional observations from a re-analysis of the deposited data

Results flagged for a closer look

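In 19 of 74 groups of 4 or 5 libraries checked, for members named above, 1 library stood apart from the rest by Dixon's criterion at 95%. Chance alone gives about 5% for normally distributed values. The criterion was applied to CPM without a log, all 19 were high values, and the members are not independent of each other. The 19 of 74 therefore does not measure an excess over chance. P0 WT replicate 4 was the high library for Krtap1-5 (27.6 CPM, next 5.82), Krtap2-4 (6.39, next 1.33), Krtap4-1 (6.11, next 1.25), Krtap4-6 (3.18, next 0.750), Krtap6-2 (47.2, next 10.1) and Krtap21-1 (41.5, next 12.0). It was also the high library for Krtap19-9b (4.45 CPM, next 0.715), Krtap20-2 (0.647, next 0.107) and Krtap19-9a (0.0259, from 1 count, the others at 0). This is the library that goes against its sex label and the only one of P0 WT in block B. P0 WT replicate 1 was the high library for Krtap10-4 (0.679 CPM, next 0.104) and Krtap15 (0.261, next 0.0259).

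P3 WT replicate 1 stood apart for Krtap15 (89.0 CPM, next 14.1), Krtap14 (29.0, next 6.59), Krtap24-1 (33.8, next 8.57), Krtap5-5 (20.4, next 5.25) and Krtap5-4 (6.93, next 1.54). It stood apart for 3 genes of subfamily 19 as well, Krtap19-3 (24.0 CPM, next 3.802), Krtap19-9b (23.5, next 3.31) and Krtap19-9a (2.37, next 0.602).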

How the results depend on the processing

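For P3 against P0 in WT, the edgeR fit called 10 Krtap members, beside 1836 of 21619 genes called higher. The number of members was 47 with no filter (2272 of 36822 genes higher), 17 with DESeq2 (2485 of 21617) and 0 with limma voom (1710 of 21619). It was 3 with only the groups compared in the fit (2091 of 18912) and 6 with a column block term (2714 of 21619). With the litter as a replicate block it was 0, within days (1535 of 21619) or by number across days (1600 of 21619). Added after seeing the data, it was 3 in block A alone, 2 of them higher (3283 of 21691 genes higher). With the block term and without P0 WT replicate 4 it was 6 (3235 of 21229). Leaving out single libraries gave 0 to 18, beside 900 to 2173 genes higher. For P3 against P0 in Krt9-/-, where 0 were called, no filter gave 53, DESeq2 10, block B alone 15, the block term without P0 WT replicate 4 gave 6, and single libraries left out gave 0 to 1. Krt9-/- against WT had 0 called at either day. With no filter it gave 7 at P0, 1 of them higher (43 of 36822 genes higher), and 13 at P3, all higher (576 of 36822). The interaction, with 0, gave 16 with no filter (571 of 36822 genes positive) and 1 with the block term without P0 WT replicate 4 (1039 of 21229). Block B holds 1 P0 library of each genotype, so counts in block B alone that involve P0 rest on arms of 1 library. Such counts carry no evidence on the day or the genotype. That holds for the block B count listed above for P3 against P0 in Krt9-/-, and the others are not given. The replicate block changed no other call. Other scalings, the filter of 1 CPM in 4 libraries, no robust dispersions and no sex term kept the WT count within 1.5 times of 10. The summed levels moved by less than 1 SD of their group. That limit is wide, as the SD in P3 WT was 625 CPM beside a mean of 623. For single libraries left out it is met by construction, so it does not show that the sums were stable.

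The sign of the WT day change (log2) reversed for members with small changes. In limma voom it was -0.0598 for Krtap6-2, -0.0440 for Krtap7-1, -0.496 for Krtap20-2 and -0.516 for Krtap21-1. With the block term it was -0.192, -0.0891, -0.0161 and -0.503 for those 4 and -0.0886 for Krtap22-2. With the litter number across days as a replicate block it was -0.122, -0.0756, -0.578 and -0.577 for the same 4, and with the litter within days -0.00934 for Krtap20-2 and -0.315 for Krtap21-1. In block A alone it was -0.0881 for Krtap3-1, -0.0851 for Krtap6-2, -0.371 for Krtap7-1, -0.804 for Krtap21-1, -0.000186 for Krtap22-2 and -0.303 for Krtap27-1. With the block term and without P0 WT replicate 4 it was -0.314 for Krtap7-1, -0.602 for Krtap21-1 and -0.132 for Krtap27-1. Leaving out single libraries gave -0.0574 to 1.40 for Krtap3-1, -0.400 to 1.82 for Krtap6-2, -0.354 to 1.05 for Krtap7-1, -0.398 to 2.19 for Krtap20-2, -0.617 to 1.56 for Krtap21-1 and -0.181 to 1.61 for Krtap22-2, each lowest without P3 WT replicate 5. The P3 genotype difference of Krtap4-6 was -0.0277 in block A alone and -0.0270 to 1.58 with single libraries left out. The cause of these moves was not tested, except that the no-filter and single-library fits change the genes or libraries by construction. Depth limits the members near 0 at P0.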
